A study of Homo sapiens with 9 samples.

Results

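The genes described here make cholesterol and fatty acids or control those pathways. They are 36 of the 56505 gene symbols in the count tables, chosen by name: every row whose symbol is one of 8 mevalonate pathway enzymes, 11 sterol enzymes, 10 genes of regulation and transport, or 7 fatty acid enzymes. All 36 had a row, and 35 of them had enough counts to be tested. The exception was ABCG1, a cholesterol exporter, which had 1, 2 and 3 counts in clone 1 libraries, 6, 5 and 21 in clone 2 libraries and 4, 18 and 4 in wild-type libraries.

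The mevalonate pathway joins acetyl-CoA units into isoprenoids, the building blocks of sterols, of prenyl anchors on proteins and of ubiquinone. The sterol enzymes fold squalene into lanosterol and trim it to cholesterol. Transcription of these enzymes, and of much of fatty acid synthesis, is driven by SREBP factors (genes SREBF1 and SREBF2). SCAP carries them out of the endoplasmic reticulum when sterols are low, and INSIG proteins hold SCAP back when sterols are high. Excess sterol acts the other way through LXR receptors, which raise exporters such as ABCA1 and ABCG1 and the ubiquitin ligase MYLIP, which degrades the LDL receptor. Tumour cells in culture take lipid from serum and also make it.

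RNA was sequenced from 3 groups of MDA-MB-231-D3H2LN cells with 3 libraries each: JAG1 knockout clone 1, JAG1 knockout clone 2, and the wild-type line. MDA-MB-231-D3H2LN is derived from MDA-MB-231, a human breast cancer line with mesenchymal features. JAG1 encodes a ligand of Notch receptors. Cas9 protein and guide RNAs to separate places in 1 exon of the gene were transfected, and each clone was then grown from a lone cell and checked by the submitters as a homozygous knockout. All 3 groups were kept in high-glucose DMEM with 10% serum, a source of lipoprotein cholesterol. Each knockout is 1 clone, so a difference from wild type may belong to the clone rather than to the loss of JAG1, and these cannot be told apart. Whether the replicates were grown as separate cultures is not stated. The p-values therefore reflect only how far these libraries spread, which may be technical.

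Total counts ran from 16890890 to 22456164 per library. JAG1 had 110.3, 80.8 and 92.3 CPM (counts scaled to a common library size) in clone 1 and 76.1, 68.1 and 56.5 in clone 2, against 246.2, 160.9 and 180.6 in wild type, so transcript was still counted from the edited gene. VIM and CD44, markers of the line's mesenchymal state, were at 769.9 CPM or more in every library. Also listed as high in the line were AXL, at 919.3 to 2277 CPM, and KRT18, an epithelial keratin, at 111.5 to 369.7 CPM. ESR1, PGR and CDH1, markers of luminal epithelial breast cells, were at 1.295 CPM or less. Of 4 markers of leukocytes and endothelium, CD3E was at 0, PTPRC and CDH5 stayed under 1 CPM, and PECAM1 ran from 1.80 to 5.24 CPM. In such bulk samples, fewer cells of a state and less RNA per cell cannot be told apart.

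The 3 libraries numbered 1 stood apart in these genes before any comparison of groups. The 36 genes together took 0.255%, 0.580% and 0.637% of all counts in clone 1 replicates 1, 2 and 3. In clone 2 they took 0.320%, 0.666% and 0.711%, and in wild type 0.441%, 0.762% and 0.668%. Replicate 1 was the lowest library of its group in all 3 groups for 26 of the 35 tested genes (74.3%), against 11% of the 16921 genes tested. Under the same count, replicate 2 was lowest throughout for 0 genes and replicate 3 for 1. The 26 were 6 of 8 mevalonate enzymes, 7 of 11 sterol enzymes, 6 of 9 genes of regulation and transport and 7 of 7 fatty acid enzymes. The labels do not say what a replicate number marks, and the pattern was seen in the data and not planned for, so it is given with no test.

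The drop in replicate 1 was deep for some genes and absent for others. On the log2 scale, replicate 1 lay below the mean of replicates 2 and 3 with a median difference over the 35 genes of −0.83 in clone 1, −0.63 in clone 2 and −0.49 in wild type, where the median of all genes tested was 0.03, −0.03 and −0.01. INSIG1, whose protein retains SCAP and whose transcript SREBP itself raises, differed by −2.31 in clone 1, −1.68 in clone 2 and −0.99 in wild type. SCD, the desaturase that makes oleate, differed by −2.30, −1.68 and −1.12 in the same groups. HMGCS1, which makes HMG-CoA at the head of the mevalonate pathway, differed by −1.79, −1.93 and −0.82. SCAP went the other way, with differences of 0.05, 0.35 and 0.06. ABCA1 did not share the drop (−0.22, 0.02 and 0.35), and neither did PMVK, the kinase that phosphorylates mevalonate phosphate (−0.17, 0.03 and −0.18).

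Other quality measures moved with replicate 1 in some groups but not in all 3. Transcripts of the 13 mitochondrial genes took 2.28%, 3.61% and 4.91% of counts in clone 1 replicates 1, 2 and 3, 0.843%, 1.79% and 1.01% in clone 2, and 2.52%, 3.67% and 1.66% in wild type. Total counts of replicate 1 were the lowest of the group in clone 2 only. The TMM scaling factor, which corrects for the makeup of a library, was 1.037, 1.058 and 1.065 in clone 1 replicates 1, 2 and 3. It was 0.861, 0.984 and 0.939 in clone 2, and 1.023, 1.060 and 0.993 in wild type. Replicate 1 thus had the lowest mitochondrial share and the lowest factor of its group in both clones, but not in wild type. Genes with a count were fewest in replicate 1 in clone 2 only (19905). The part of these measures in the pattern was not tested. Among 46 further genes of the pathway, listed for their function, replicate 1 was lowest in all groups for 9 (19.6%), or for 15 (32.6%) with scaling by total counts, which gave 28 of the 35 (80%) and 13.9% of all genes.

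**Figure D1:**
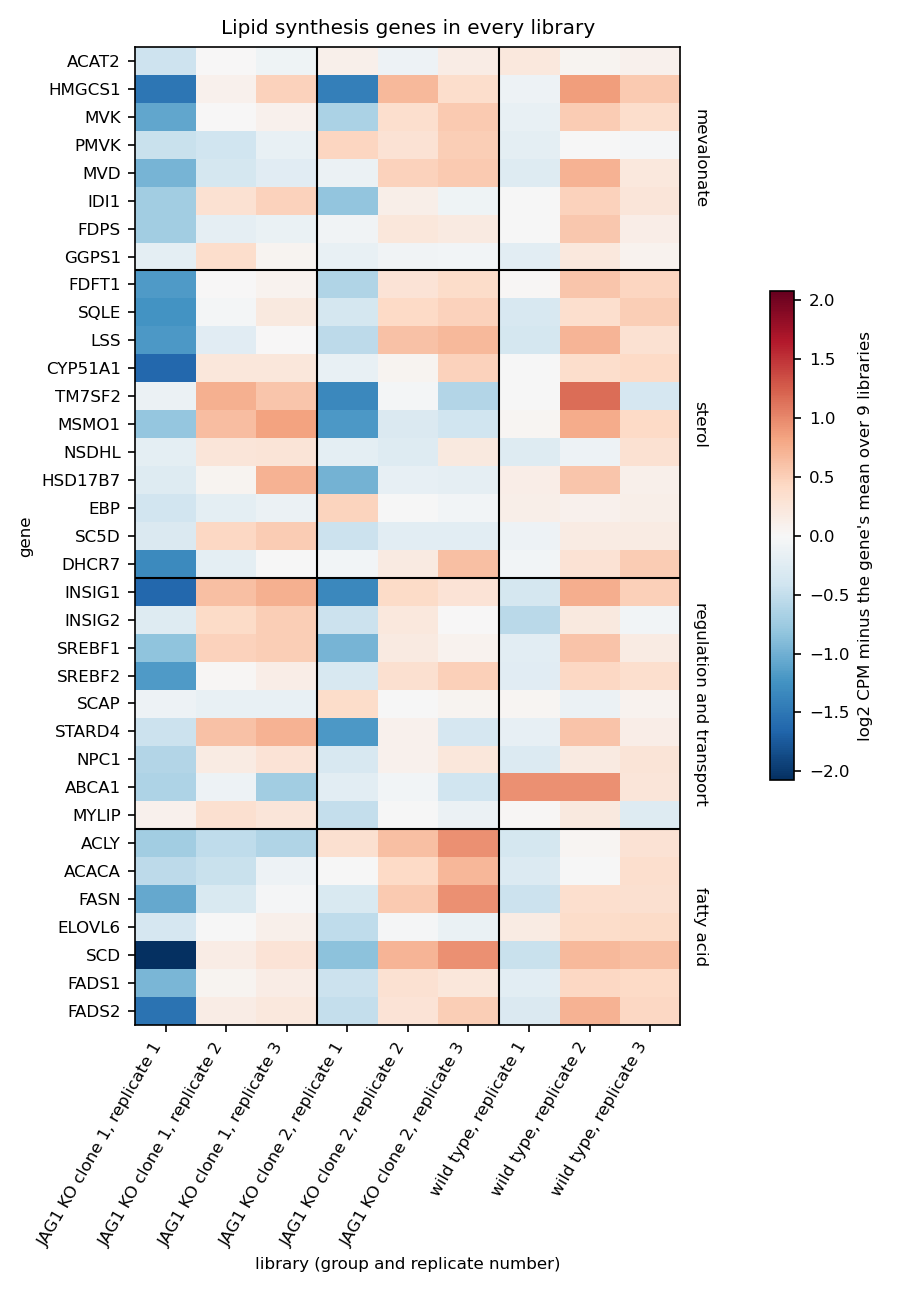
Level of each tested gene (rows, ordered by step) in each of the 9 libraries (columns, by group and replicate number), as log2 CPM minus the gene's mean over the 9 libraries; red is above that mean and blue below. Replicate 1 is the bluest column of each group for most rows, being the lowest of its group in every group for 26 of 35 genes, with SCAP, ABCA1 and PMVK among the exceptions.

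**Figure D2:**
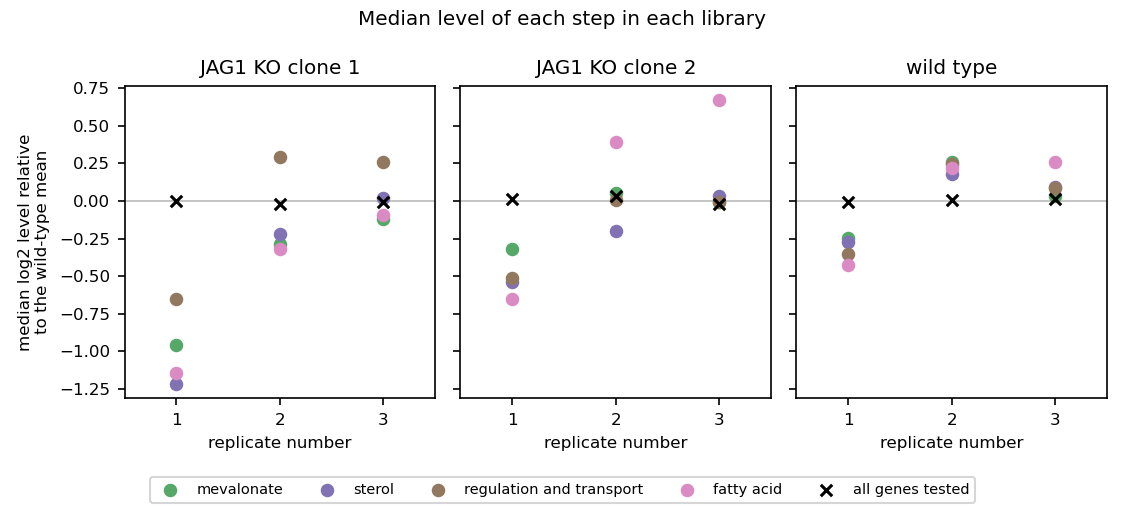
Median over the genes of each step (coloured points) and over all genes tested (crosses) of the log2 level relative to the wild-type mean, for each library by replicate number and group. The fatty acid median is −1.15 in clone 1 replicate 1, −0.65 in clone 2 replicate 1 and −0.42 in wild-type replicate 1, while the crosses lie between −0.02 and 0.04 in all 9 libraries.

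Because these genes moved together between libraries, the DNA before their start sites was examined. RefSeq promoters of GRCh38.p14, from 250 bases before to 50 bases after a start, were at hand for 31 of the 36 genes (43 promoters). The search covered 3 motifs, on both strands: TCACNCCAC, a form of the sterol response element bound by SREBP; CCAAT, the box bound by NF-Y, a partner of SREBP; and GGGCGG, the GC box bound by SP1. CCAAT occurred in 26 of the 43 promoters (60.5%), against 34.6% of all 35116 promoters in the table. GGGCGG occurred in 38 (88.4%), against 45% of all. TCACNCCAC occurred in 1 (2.33%), against 1.13%. By gene, CCAAT was found for 22 of 31. No matches of different motifs overlapped. A match is only a match of letters. The promoters compared were not matched to these genes for expression or GC content, and a part of the motifs in the pattern was not tested. The promoters of 4 genes treated below are printed, with that of SREBF2, which was picked after the search because it held the sole TCACNCCAC match. Capitals mark CCAAT or, where it lies on the opposite strand, ATTGG, and in SREBF2, TCACNCCAC; GC boxes are left in lower case. All read 5′ to 3′ on the gene's strand. MVD is at chr16:88663042-88663341 (minus strand), MSMO1 at chr4:165327419-165327718 (plus), ACLY at chr17:41918973-41919272 (minus), ABCA1 at chr9:104928106-104928405 (minus) and SREBF2 at chr22:41832855-41833154 (plus).
MVD: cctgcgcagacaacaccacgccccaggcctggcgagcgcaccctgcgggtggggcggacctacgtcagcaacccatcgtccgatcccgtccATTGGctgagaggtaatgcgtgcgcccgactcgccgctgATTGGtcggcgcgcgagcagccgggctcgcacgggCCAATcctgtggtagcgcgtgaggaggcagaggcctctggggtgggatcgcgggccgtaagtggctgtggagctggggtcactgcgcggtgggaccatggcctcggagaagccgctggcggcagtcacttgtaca
MSMO1: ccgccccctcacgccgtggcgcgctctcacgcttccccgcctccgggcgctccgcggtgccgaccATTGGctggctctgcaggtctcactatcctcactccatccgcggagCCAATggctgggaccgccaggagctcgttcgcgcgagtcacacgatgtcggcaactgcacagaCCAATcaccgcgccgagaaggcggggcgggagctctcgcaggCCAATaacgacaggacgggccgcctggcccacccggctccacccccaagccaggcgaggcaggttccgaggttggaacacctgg
ACLY: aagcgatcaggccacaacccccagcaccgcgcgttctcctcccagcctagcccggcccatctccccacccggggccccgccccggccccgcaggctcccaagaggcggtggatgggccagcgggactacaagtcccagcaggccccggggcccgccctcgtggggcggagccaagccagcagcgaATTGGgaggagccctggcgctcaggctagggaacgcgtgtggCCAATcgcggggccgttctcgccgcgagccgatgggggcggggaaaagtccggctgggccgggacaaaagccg
ABCA1: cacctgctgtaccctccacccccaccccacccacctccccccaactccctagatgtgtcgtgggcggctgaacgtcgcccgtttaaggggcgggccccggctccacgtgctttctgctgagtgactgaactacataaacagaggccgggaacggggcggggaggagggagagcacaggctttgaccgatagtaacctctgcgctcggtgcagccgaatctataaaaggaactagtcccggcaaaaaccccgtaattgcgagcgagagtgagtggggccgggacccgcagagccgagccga
SREBF2: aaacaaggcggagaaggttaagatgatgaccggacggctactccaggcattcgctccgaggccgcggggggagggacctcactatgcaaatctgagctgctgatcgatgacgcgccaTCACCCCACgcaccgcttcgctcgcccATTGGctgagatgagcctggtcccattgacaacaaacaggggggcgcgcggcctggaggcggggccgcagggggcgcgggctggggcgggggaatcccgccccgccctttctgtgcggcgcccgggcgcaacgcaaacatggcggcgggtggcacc
MVD held 3 CCAAT matches, beginning 159, 120 and 85 bases before the start. MSMO1 held 4 and ACLY 2. The ABCA1 window held no CCAAT and 3 GC boxes. The printed genes are not typical of those called below: MSMO1 was not called by the fit without a block. PMVK, SC5D and ACACA were called but are not printed. The PMVK promoter held 0 CCAAT matches, each SC5D promoter held 1, and the ACACA promoters held 0, 1 and 2. In SREBF2 the TCACNCCAC match began 133 bases before the start and the CCAAT match 106 bases before it.

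The design gives 3 comparisons: each clone with wild type, which share the wild-type libraries, and the clones with each other. Each gene was tested with edgeR's quasi-likelihood test over all 16921 genes, and a gene was called when its Benjamini-Hochberg adjusted p was under 0.05. Calls are from this fit of all 9 libraries without a block, unless another fit is named. Differences are log2 values with their standard error (SE).

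Between clone 1 and wild type, 933 genes were called (5.51%), 239 higher (1.41%) and 694 lower (4.1%). Of the 35 genes of lipid synthesis, 1 was lower, 0 were higher and 34 were not called. At an unadjusted p under 0.05, 0 were higher and 7 lower, where 7.95% and 13.9% of all genes were. The median difference of the 35 was −0.39, with 28 below 0, beside −0.02 over all genes tested. With the replicate number as a block, 48.6% of the 35 were called, all lower, where 13.7% of all genes were called. Those called were ABCA1, ACACA, ACLY, DHCR7, ELOVL6, FADS1, FADS2, FASN, FDFT1, FDPS, HMGCS1, LSS, MVD, MVK, SCD, SQLE and SREBF2. Same-numbered clone 1 and wild-type libraries did not all deviate together over all genes, so they were not taken as paired. Over the 35 genes alone, their deviations correlated at 0.75, 0.47 and 0.41 for replicates 1, 2 and 3. The fit without a block therefore leaves a difference shared by replicate number within the spread of these genes. The libraries of the groups did not overlap for 6 of the 35, all lower in clone 1 (ACAT2, FDPS, EBP, ABCA1, ACLY and ELOVL6), where 29.6% of all genes did not overlap and 16.5% were lower without overlap (13.1% higher).

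Between clone 2 and wild type, 1008 genes were called (5.96%), 543 higher (3.21%) and 465 lower (2.75%). Of the 35 genes, 1 was lower, 0 were higher and 34 were not called. At an unadjusted p under 0.05, 2 were higher and 5 lower, where 13.1% and 11.1% of all genes were. The median difference was −0.11, beside 0.00 over all genes. Groups did not overlap for 7 genes, with PMVK and ACLY higher in clone 2 and MSMO1, HSD17B7, SC5D, ABCA1 and ELOVL6 lower, where 25.9% of all genes did not overlap (14.2% higher, 11.7% lower). Same-numbered clone 2 and wild-type libraries deviated together over all genes. With the replicate number as a block, 9 of the 35 were called, 2 higher and 7 lower, and 2699 genes in all (16%). The same block in a fit of only the 6 clone 2 and wild-type libraries called 15 of the 35, where 27.1% of all genes were called. It added ACACA (higher) and FDFT1, HMGCS1, INSIG1, SC5D and SREBF1 (lower).

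Between clone 2 and clone 1, 5733 genes were called (33.9%), 3353 of them higher in clone 2 (19.8%) and 2380 lower (14.1%). Of the 35 genes, 4 were higher (PMVK, MVD, ACLY and ACACA), 1 was lower (SC5D) and 30 were not called. The median difference was 0.25, beside −0.01 over all genes. Groups did not overlap for 8 genes, 7 of them higher in clone 2, where 47.4% of all genes did not overlap (25.8% higher, 21.6% lower). At an unadjusted p under 0.05, 8 were higher and 5 lower, where 24.4% and 20.2% of all genes were. With the replicate block, 60% of the 35 were called, where 42% of all genes were called. With the 3 libraries numbered 1 left out, all 36 genes could be tested. Then 2 were lower in clone 1 than in wild type (ACLY and MVD), where 5.14% of all genes were called, and 1 was lower in clone 2 than in wild type (MSMO1), where 2.27% were called. In clone 2 against clone 1, 7 were higher and 4 lower (30.6% of the 36), where 30.4% of all genes were called.

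**Figure D3:**
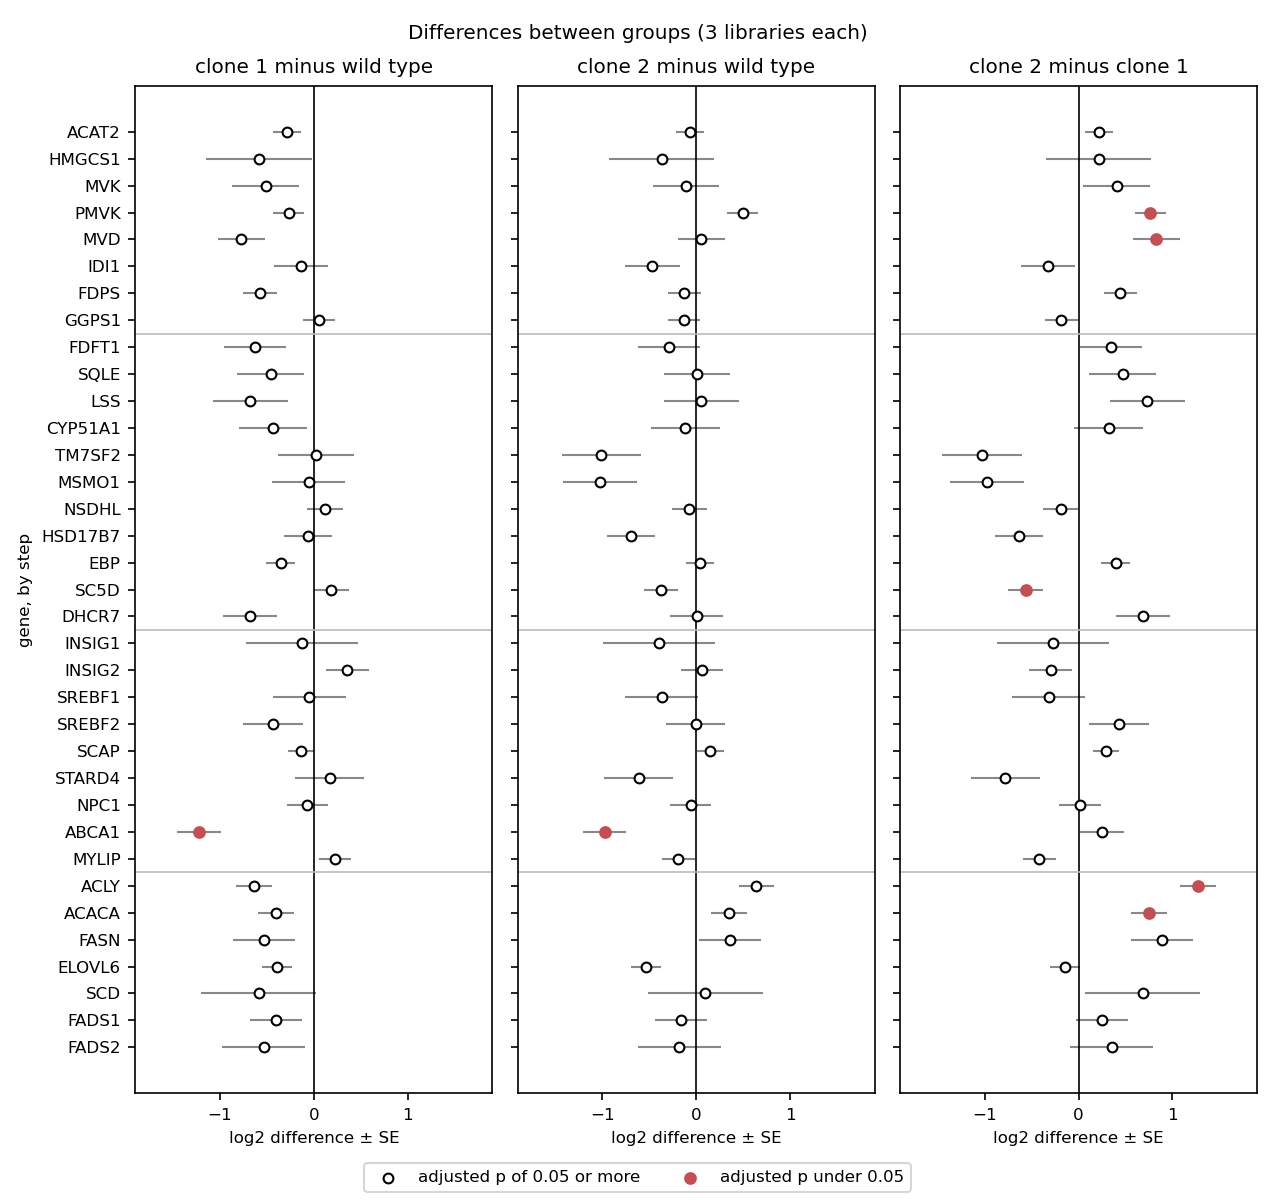
The difference on the log2 scale with its SE (points and bars) for each tested gene, ordered by step, in the 3 comparisons; filled points have an adjusted p under 0.05. ABCA1 is filled in both comparisons with wild type, at −1.22 and −0.97, and between the clones the filled points are PMVK, MVD, SC5D, ACLY and ACACA.

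In the mevalonate pathway, 0 of 8 enzymes were called in either clone against wild type, where 5.51% (clone 1) and 5.96% (clone 2) of all genes were. In clone 2 against clone 1, 2 of the 8 were higher, beside 19.8% of all genes. The median differences of the 8 were −0.40 in clone 1 and −0.12 in clone 2 against wild type, and 0.31 between the clones. PMVK had 11.9, 12.3 and 14.7 CPM in clone 1 and 22.3, 20.2 and 23.3 in clone 2, against 14.3, 16.3 and 16.0 in wild type. Every clone 2 library was above all 6 others. PMVK was higher in clone 2 than in clone 1 by 0.76 (SE 0.17, adjusted p = 0.00265), a call that held without any 1 of the 9 libraries. Against wild type, PMVK differed by 0.50 in clone 2 (adjusted p = 0.0789), and by 0.50 with the replicate block (adjusted p = 0.0373).

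MVD decarboxylates mevalonate diphosphate to isopentenyl diphosphate. It had 19.0, 28.8 and 31.5 CPM in clone 1 and 34.3, 52.2 and 54.3 in clone 2, against 31.1, 61.3 and 43.1 in wild type. All clone 2 libraries were above all clone 1 libraries, and the wild-type values overlapped with both clones. MVD was higher in clone 2 than in clone 1 by 0.83 (SE 0.25, adjusted p = 0.0201). Leaving out clone 1 replicate 1 or 2 or clone 2 replicate 2 or 3 ended the call (adjusted p up to 0.115). In clone 1 MVD differed from wild type by −0.77 (adjusted p = 0.0864), and without the libraries numbered 1 by −0.77 (adjusted p = 0.0316).

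FDPS joins isoprenoid units into farnesyl diphosphate, the branch point to sterols and prenylated proteins. It had 53.0, 77.3 and 79.9 CPM in clone 1 and 83.6, 103.5 and 99.2 in clone 2, against 87.2, 129.2 and 95.9 in wild type. Clone 1 libraries were below all others, with a difference from wild type of −0.57 (SE 0.18, adjusted p = 0.0747). Reads of RUSC1-AS1, on the opposite strand, can fall on 18.6% of the FDPS exon bases, and the strand setting is not given in the sources used here. IDI1, which isomerises isopentenyl diphosphate, differed from wild type by −0.47 in clone 2 (adjusted p = 0.354) and by −0.52 with the replicate block (adjusted p = 0.0199). The other 4 enzymes (ACAT2, HMGCS1, MVK and GGPS1) differed by −0.58 to 0.06 in clone 1 and by −0.37 to −0.07 in clone 2 against wild type. With the replicate block, MVD, FDPS, HMGCS1 and MVK were called lower in clone 1 than in wild type. PMVK, MVD, FDPS and MVK were then called higher in clone 2 than in clone 1. Of ACAT2, 43.0% of exon bases are shared with SOD2 on the opposite strand, so its level is uncertain.

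Among the sterol enzymes, 0 of 11 were called in either clone against wild type, where 5.51% (clone 1) and 5.96% (clone 2) of all genes were. In clone 2 against clone 1, 1 of the 11 was lower, beside 14.1% of all genes. SC5D, which sets the C5 double bond of the sterol ring, had 73.9, 122.5 and 131.1 CPM in clone 1 and 66.2, 78.1 and 77.5 in clone 2, against 84.4, 101.5 and 101.8 in wild type. Clone 2 libraries were below all wild-type libraries, while clone 1 replicate 1 lay within the range of clone 2. SC5D was lower in clone 2 than in clone 1, with a difference of −0.56 (SE 0.18, adjusted p = 0.0267). The call ended without clone 1 replicate 2 or 3 or clone 2 replicate 1 or 3 (adjusted p up to 0.152), and with a correction for GC content and length (−0.43, adjusted p = 0.0669).

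MSMO1 removes methyl groups from C4 of the sterol ring, and per length it was the second most abundant of the 36 transcripts in clone 1 and in wild type. It had 119.0, 324.2 and 372.6 CPM in clone 1 and 90.9, 169.9 and 155.4 in clone 2, against 213.9, 356.6 and 278.2 in wild type. Clone 2 libraries were below all wild-type libraries and overlapped with clone 1 only through its replicate 1. The difference between clone 2 and wild type was −1.03 (SE 0.40, adjusted p = 0.150). With the replicate block it was −1.06 (SE 0.17, adjusted p = 0.000214), and without the libraries numbered 1 it was −0.99 (SE 0.17, adjusted p = 0.0101). In clone 1 it was −0.06 (adjusted p = 0.951).

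HSD17B7 reduces the ketone left at C3 after a C4 methyl group is removed. It had 20.5, 25.8 and 41.0 CPM in clone 1 and 12.6, 21.9 and 21.6 in clone 2, against 27.4, 37.2 and 26.6 in wild type. Every clone 2 library was below every wild-type library, with a difference of −0.70 (SE 0.26, adjusted p = 0.118), and of −0.74 with the replicate block (SE 0.18, adjusted p = 0.00759). The gene has a near-identical pseudogene, so its counts are uncertain. TM7SF2, a sterol reductase acting on the C14 double bond, was low, with 3.42, 6.32 and 5.63 CPM in clone 1 and 1.42, 3.63 and 2.42 in clone 2, against 3.74, 8.46 and 2.92 in wild type. Its groups overlapped, and clone 2 differed from wild type by −1.01 (SE 0.42, adjusted p = 0.155), or by −0.99 with the replicate block (adjusted p = 0.0311).

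The other 7 sterol enzymes were not called in any comparison by the fit without a block. With the replicate block, FDFT1, SQLE, LSS and DHCR7 were called lower in clone 1 than in wild type. Those and EBP were then called higher in clone 2 than in clone 1. FDFT1, SQLE, LSS, CYP51A1, EBP and DHCR7 differed by −0.68 to −0.36 in clone 1 against wild type, and NSDHL by 0.12. DHCR7, the reductase of the last step to cholesterol, averaged 101.7 ± 42.3 CPM in clone 1 and 163.2 ± 40.6 in clone 2, against 162.8 ± 31.7 in wild type (SD, n = 3 each). Its difference from wild type was −0.68 in clone 1 (SE 0.29, adjusted p = 0.186) and 0.00 in clone 2 (adjusted p = 0.997). Of CYP51A1, 78.8% of exon bases are shared with LRRD1 on the same strand, which had 0 to 8 counts.

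In regulation and transport, ABCA1 was the only gene of 9 tested that was called, lower in both clones than in wild type. Of all genes, 4.1% were lower in clone 1 and 2.75% in clone 2. ABCA1 moves cholesterol out of the cell onto lipoprotein acceptors. It had 7.72, 11.2 and 7.24 CPM in clone 1 and 10.4, 11.6 and 9.06 in clone 2, against 23.3, 23.4 and 14.3 in wild type. All 6 knockout libraries were below all 3 wild-type libraries. The means were 8.71 ± 2.15 CPM in clone 1 and 10.4 ± 1.28 in clone 2, against 20.3 ± 5.20 in wild type (SD, n = 3 each). The difference from wild type was −1.22 in clone 1 (SE 0.23, adjusted p = 0.00695) and −0.97 in clone 2 (SE 0.23, adjusted p = 0.0232; 0.00105 with the replicate block). Both comparisons use the same wild-type libraries. Between clone 2 and clone 1 it differed by 0.25 (SE 0.23, adjusted p = 0.432).

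The ABCA1 calls rested on few libraries. In clone 1 the call ended without clone 1 replicate 3 (adjusted p = 0.0543). In clone 2 it ended without wild-type replicate 1 (adjusted p = 0.102), wild-type replicate 2 (0.107) or clone 2 replicate 3 (0.110). Without the libraries numbered 1 the differences were −1.004 in clone 1 (adjusted p = 0.0576) and −0.90 in clone 2 (adjusted p = 0.113). MYLIP, another target of LXR, differed from wild type by 0.22 in clone 1 and −0.19 in clone 2 and was not called.

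The controllers of the pathway were not called in any comparison by the fit without a block. SREBF1, SREBF2 and SCAP differed from wild type by −0.44 to −0.05 in clone 1 and by −0.37 to 0.15 in clone 2. With the replicate block, SREBF2 was called lower in clone 1 than in wild type, and higher in clone 2 than in clone 1. INSIG1 averaged 260.3 ± 164.4 CPM in clone 1 and 215.9 ± 111.8 in clone 2, against 284.6 ± 102.3 in wild type (SD, n = 3 each), so the SD within each group was larger than any difference between group means. In clone 2 against wild type, INSIG1 differed by −0.54 with the replicate block (adjusted p = 0.0774). With the block in a fit of only those 6 libraries, INSIG1 was lower in clone 2 (−0.51, SE 0.12, adjusted p = 0.00159), as was SREBF1 (−0.42, SE 0.12, adjusted p = 0.00518). INSIG2, which also retains SCAP, had 45.3, 71.7 and 78.0 CPM in clone 1 and 40.3, 63.5 and 54.9 in clone 2, against 37.0, 62.7 and 52.5 in wild type. Its groups overlapped, and the differences from wild type were 0.36 in clone 1 (adjusted p = 0.378) and 0.06 in clone 2 (adjusted p = 0.901).

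STARD4, a carrier that moves cholesterol between membranes, had 70.9, 147.1 and 159.3 CPM in clone 1 and 41.8, 102.5 and 75.1 in clone 2, against 85.6, 144.2 and 105.6 in wild type. Clone 2 values reached from below the other groups into the range of both. The difference between clone 2 and wild type was −0.61 (SE 0.37, adjusted p = 0.347), and −0.68 with the replicate block (SE 0.15, adjusted p = 0.00281). NPC1, which releases cholesterol from lysosomes, differed by −0.07 in clone 1 and −0.06 in clone 2.

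The 7 fatty acid enzymes held the largest step median between the clones. Their median difference was −0.53 in clone 1 against wild type (7 of 7 below 0), 0.10 in clone 2 against wild type (4 above 0) and 0.68 between clone 2 and clone 1 (6 above 0). Leaving out each library in turn, these medians ran from −0.76 to −0.27, from −0.23 to 0.50 and from 0.24 to 0.92, so the sign in clone 2 against wild type turned. None was called against wild type by the test over all genes, which called 5.51% of all genes in clone 1 and 5.96% in clone 2. At an unadjusted p under 0.05, 2 were lower in clone 1, beside 13.9% of all genes. In clone 2, 1 was higher and 1 lower, beside 13.1% and 11.1%. Between the clones, 2 of the 7 were called higher in clone 2, where 19.8% of all genes were. SCD had the highest level per kilobase of exon among the 36 genes, with 203.5 ± 128.0 CPM per kilobase in clone 1 and 326.7 ± 172.3 in clone 2, against 305.5 ± 116.1 in wild type (SD, n = 3 each).

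ACLY splits citrate into the acetyl-CoA that feeds both pathways. It had 211.6, 242.3 and 225.7 CPM in clone 1 and 438.0, 536.7 and 670.1 in clone 2, against 270.3, 356.5 and 427.7 in wild type. The groups did not overlap: clone 1 was below wild type and clone 2 above it in every library. ACLY was higher in clone 2 than in clone 1 by 1.28 (SE 0.19, adjusted p = 0.000226), and the call held without any 1 of the 9 libraries. The difference from wild type was −0.63 in clone 1 (SE 0.19, adjusted p = 0.0642). In clone 2 it was 0.64 (SE 0.19, adjusted p = 0.0576), and 0.64 with the replicate block (adjusted p = 0.00425). The block also called ACLY lower in clone 1 than in wild type. Without the libraries numbered 1, ACLY was lower in clone 1 than in wild type, with a difference of −0.71 (adjusted p = 0.0382).

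ACACA carboxylates acetyl-CoA to malonyl-CoA, the committed step of fatty acid synthesis. It had 60.7, 64.1 and 82.6 CPM in clone 1 and 88.0, 117.9 and 143.0 in clone 2, against 72.6, 88.4 and 112.9 in wild type. All clone 2 libraries were above all clone 1 libraries, and wild type overlapped with both. ACACA was higher in clone 2 than in clone 1 by 0.75 (SE 0.19, adjusted p = 0.00771), and the call ended without clone 2 replicate 3 (adjusted p = 0.0537). FASN, which builds palmitate from malonyl-CoA, differed between the clones by 0.89 (SE 0.33, adjusted p = 0.0532) and was called without the libraries numbered 1 (0.87, adjusted p = 0.00485). With the replicate block, ACACA and FASN were called lower in clone 1 than in wild type.

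ELOVL6 lengthens palmitate to stearate. It had 60.3, 76.9 and 82.5 CPM in clone 1 and 53.6, 75.4 and 70.1 in clone 2, against 86.5, 100.4 and 101.4 in wild type. Every knockout library was below every wild-type library. The differences from wild type were −0.39 in clone 1 (SE 0.16, adjusted p = 0.160) and −0.53 in clone 2 (SE 0.16, adjusted p = 0.0594), and −0.54 in clone 2 with the replicate block (adjusted p = 0.00429). The block also called ELOVL6 lower in clone 1 than in wild type. The desaturases SCD, FADS1 and FADS2 differed by −0.59 to −0.41 in clone 1 and by −0.18 to 0.10 in clone 2 against wild type. None was called by the fit without a block. With the replicate block, all were called lower in clone 1 than in wild type and none was called in clone 2 against wild type.

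**Figure D4:**
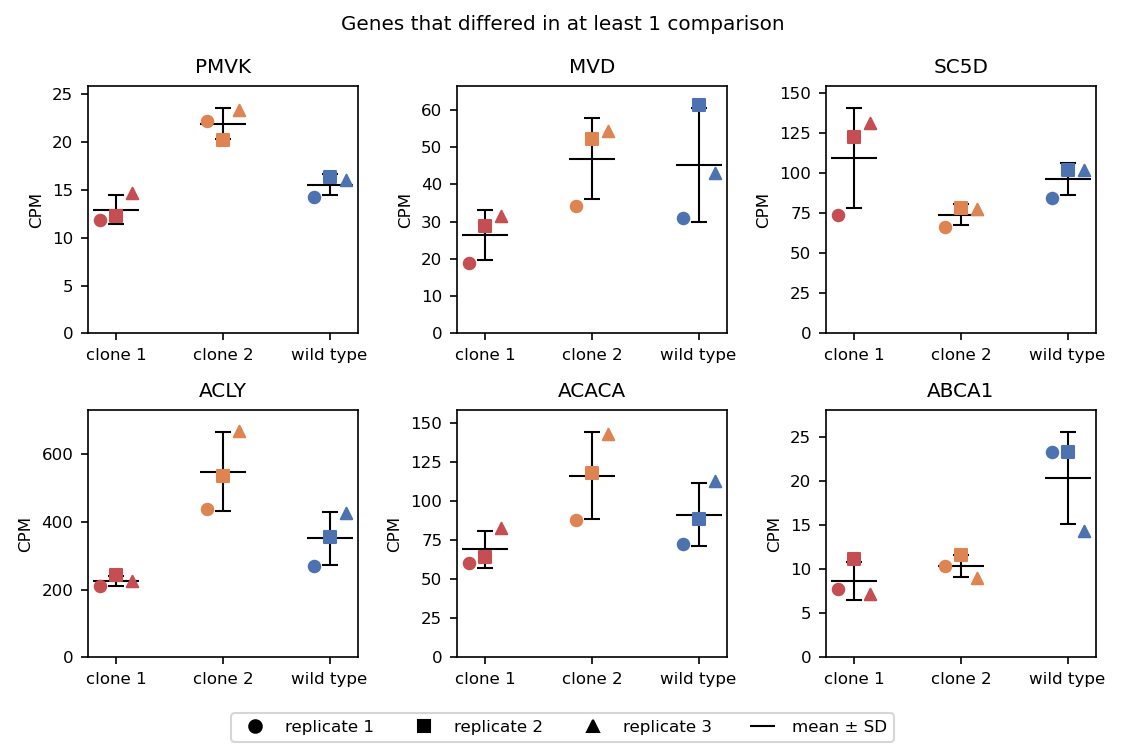
CPM in each library (points, shape by replicate number) with the group mean and SD (bars, n = 3) for the 6 genes called in at least 1 comparison, each panel from 0. ABCA1 lies at 7.24 to 11.6 CPM in the knockout libraries and at 14.3 CPM or more in wild type, and ACLY lies at 211.6 to 242.3 CPM in clone 1 and 438.0 to 670.1 in clone 2, on either side of wild type.

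The 46 further genes of the pathway, which handle sterols, use isoprenoids or serve fatty acid and glycerolipid synthesis, were all tested. Against wild type, 1 was lower in clone 1 and 2 were lower in clone 2, beside 4.1% and 2.75% of all genes. HACD2, a dehydratase of fatty acid elongation, had 37.3, 39.8 and 39.5 CPM in clone 1 and 48.1, 36.2 and 39.2 in clone 2, against 70.4, 54.96 and 69.4 in wild type. All knockout libraries were below all wild-type libraries, and the differences were −0.74 for clone 1 (SE 0.15, adjusted p = 0.0106) and −0.66 for clone 2 (SE 0.15, adjusted p = 0.0190). FNTA, a subunit of the protein prenyltransferases, differed from wild type by −0.59 in clone 2 (adjusted p = 0.0333).

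Between clone 2 and clone 1, 12 of the 46 were higher and 3 lower, beside 19.8% and 14.1% of all genes. The higher ones included 7 of the 24 fatty acid and glycerolipid genes. Among these, ACSS2, which makes acetyl-CoA from acetate, differed by 0.96 (adjusted p = 0.0107), and ELOVL7, a fatty acid elongase, by 0.76 (adjusted p = 0.0117). SLC25A1, the carrier that exports citrate from mitochondria, differed by 0.69 (adjusted p = 0.0210). MID1IP1, an activator of acetyl-CoA carboxylase, differed by 0.54 (adjusted p = 0.0356). The other 3 of the 7 were TECR, ACSL4 and PLIN2. The remaining higher genes were TMEM97, NR1H2, FNTB, NUS1 and PDSS2. The 3 lower genes were LIPA, the lysosomal lipase (−0.54, adjusted p = 0.0308), FNTA (−0.58, adjusted p = 0.00785) and ACACB, the mitochondrial acetyl-CoA carboxylase (−0.59, adjusted p = 0.0250).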

How the data were processed

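Bulk RNA of 9 libraries in 3 groups of 3 was analysed from raw counts per gene, which the authors deposited in 2 tables that repeat the same 3 wild-type columns (used once). Tools named per the submitters' processing notes are STAR, Subread, featureCounts and DESeq2, with build GRCh38. Neither the annotation release nor the strand setting is stated, and so overlapping genes may share reads. Total counts ran from 16890890 to 22456164 per library.

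Counts were tested with edgeR 4.0.16 in R 4.3.3: TMM scaling, the filterByExpr filter at a minimum count of 10 (leaving 16921 genes), 1 robust quasi-likelihood model for the 3 groups (6 residual degrees of freedom), and two-sided tests with Benjamini-Hochberg adjustment over all genes, called under 0.05. The biological coefficient of variation was 20.3%. CPM uses TMM-scaled library sizes; CPM per kilobase divides by the exon length in the deposited tables. The fit was tested on simulated data. The 36 genes and all lists were chosen with earlier results of these data known. Full values are given for genes called in any comparison and for the 3 per step with the smallest p in either knockout comparison; IDI1, FASN, DHCR7, INSIG1, SCD and HMGCS1 were picked for the text after their values were seen.

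Labels share replicate numbers without saying what they mark. Over all genes, deviations from group means of same-numbered clone 2 and wild-type libraries correlated at 0.223, 0.269 and 0.246, all above 0.1. Those libraries were therefore taken as paired from the data, not from the labels. Unless a fit of 6 libraries is named, the block was fitted over all 9 libraries. Its values for clone 2 against wild type thus also rest on the clone 1 libraries, which were not taken as paired. For clone 2 against wild type, block values stand beside results whose call they change. For the comparisons with clone 1, only calls with the block are given, without values for each gene. Alternatives were RLE size factors, no filter, DESeq2 1.42.0, a fit of only the 6 libraries compared, the block, a GC and length correction (87.3% of tested genes had a GC value from GENCODE transcripts), and leaving out each library. Chosen after seeing the data were leaving out all libraries numbered 1, the block in a fit of the 6 clone 2 and wild-type libraries, and other scalings for the replicate 1 count.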

Additional observations from a re-analysis of the deposited data

Results flagged for a closer look

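The 5 genes whose difference between the clones passed the test over all genes are listed here because the clones then differ from each other relative to the same wild-type libraries. Each clone is 1 line, so this is a difference between the lines. By edgeR's quasi-likelihood test with Benjamini-Hochberg adjustment, clone 2 minus clone 1 was 1.28 for ACLY (adjusted p = 0.000226, higher in 3 of 3 clone 2 libraries than in any clone 1 library), 0.83 for MVD (adjusted p = 0.0201), 0.76 for PMVK (adjusted p = 0.00265), 0.75 for ACACA (adjusted p = 0.00771) and −0.56 for SC5D (adjusted p = 0.0267, or 0.0669 with the GC and length correction). Clone 2 libraries were above all clone 1 libraries for ACLY, MVD, PMVK and ACACA, and overlapped with them for SC5D. Of all genes tested, 33.9% were called in the same comparison.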

How the results depend on the processing

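Counts of calls are given for all genes and for the 35 lipid genes tested. There were 36 where ABCG1 entered, which was without the filter, without the libraries numbered 1, and in most fits that left out 1 library. Without a filter on low counts, 31961 genes were tested. Then 1512 (4.73%) and 5 (13.9% of the 36) were called in clone 1 against wild type. In clone 2 against wild type these were 1663 (5.2%) and 5 (13.9%). In clone 2 against clone 1 they were 5712 (17.9%) and 9 (25%). DESeq2 called 1479 (8.74%) and 2 (5.71% of the 35) in clone 1 against wild type. It called 1818 (10.7%) and 4 (11.4%) in clone 2 against wild type. Fits of only the 6 libraries compared called 1296 (7.85%) and 2 in clone 1 against wild type. In clone 2 against wild type they called 416 (2.61%) and 2. The GC and length correction called 1513 (10.2%) and 4 (11.4%) in clone 2 against wild type. Leaving out the libraries numbered 1 called 884 (5.14%) and 2 (5.56% of the 36) in clone 1 against wild type. It called 391 (2.27%) and 1 (2.78%) in clone 2 against wild type, and 5228 (30.4%) and 11 (30.6%) in clone 2 against clone 1.

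The share of called genes that were higher moved with the setting: in clone 1 against wild type 25.62%, and 40.59% with the GC and length correction or 39.2% with 6 libraries; in clone 2 against wild type 53.87%, and 70.65%, 38.46% or, without the filter, 41.31%. The correction moved the median of all genes to 0.10 in clone 2 against wild type.

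With the replicate block, 2322 genes (13.7%) and 17 of the 35 (48.6%, all lower) were called in clone 1 against wild type, 2699 (16%) and 9 (25.7%) in clone 2 against wild type, and 7101 (42%) and 21 (60%; 15 higher, 6 lower) in clone 2 against clone 1. The share of the 35 against that of all genes in the 3 comparisons thus depends on the block. With the correction and the block, these were 2081 (14.1%) and 11 (31.4%), 3258 (22.1%) and 9 (25.7%), and 6441 (43.6%) and 17 (48.6%). In a fit of the 6 clone 2 and wild-type libraries, the block called 4320 (27.1%) and 15 (42.9%). Over all genes, same-numbered clone 1 libraries correlated with wild type at 0.245, 0.083 and −0.097 and with clone 2 at 0.219, −0.022 and 0.012, and were not taken as paired. Over the 35 genes alone, these values were 0.75, 0.47 and 0.41, and 0.79, 0.49 and 0.78.

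Leaving out each library in turn, 35 or 36 lipid genes were tested. Calls ran from 200 (1.15%) to 1301 genes (7.34%) and 0 to 4 lipid genes in clone 1 against wild type. They ran from 237 (1.34%) to 1584 (8.96%) and 0 to 2 in clone 2 against wild type. In clone 2 against clone 1 they ran from 3639 (20.5%) to 5782 (32.6%) and 3 to 8. The median difference of the lipid genes tested ran from −0.52 to −0.15, from −0.23 to 0.043 and from 0.013 to 0.45 in these comparisons. Some differences that were not called crossed 0. In clone 1 against wild type, the ranges were −0.24 to 0.64 for TM7SF2, −0.36 to 0.30 for MSMO1, −0.40 to 0.13 for HSD17B7 and −0.041 to 0.45 for STARD4. In clone 2 against wild type, they were −0.15 to 0.32 for MVD, −0.12 to 0.24 for INSIG2 and −0.24 to 0.041 for FDPS. Without the libraries numbered 1, MSMO1 and HSD17B7 were at 0.16 and 0.093 in clone 1 and MVD at −1e-04 in clone 2 against wild type. INSIG2 between the clones was 0.054 with the correction and 0.063 with the block added. The cause of these changes was not tested. Replicate 1 was lowest in all groups for 26 to 28 of the 35 genes under the 4 scalings tried. Depth limits ABCG1, whose 1 to 21 counts per library were too few to test in the main fit.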
